A study of Rattus norvegicus with 9 samples.

Results

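The genes described here are those of fatty acid oxidation and of peroxisome proliferator-activated receptor alpha (PPAR alpha, gene Ppara), which controls many of them in liver. The list names 47 genes by the symbol of the array annotation, and each was measured by a single probe set, the brightest on average where a symbol has several. In all, 41 of the 47 had a probe set that carries a single gene symbol, and these 41 passed the filter on dim genes, out of 15793 genes tested and 18166 genes named. They fall into 2 regulators, 19 mitochondrial genes, 4 genes whose products work in mitochondria and in other compartments, 7 peroxisomal genes and 9 other targets. Acad11, Decr2, Acot3, Acot4, Cyp4a2 and Cyp4a3 were listed but not analysed here.

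Liver cells burn fatty acids in mitochondria and, for very long chains and branched chains, in peroxisomes. A fatty acid is first joined to coenzyme A. The carnitine shuttle then carries the acyl group across the inner mitochondrial membrane, where dehydrogenation, hydration, a further dehydrogenation and thiolysis release acetyl-CoA in each turn of the cycle. PPAR alpha is a nuclear receptor that fatty acids and fibrate drugs activate. Paired with the retinoid X receptor, it binds DNA at direct repeats and raises transcription of oxidation genes in fasting, and in rats and mice fibrates also enlarge the peroxisome population through it.

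RNA of regions cut by laser from liver sections of female F344 rats was hybridised to 9 whole-transcript arrays, 3 in each of 3 groups. The first group holds small hepatocyte-like progenitor cells (SHPCs) from livers that had received Thy1+ cells of a DPPIV+ donor through the spleen, the recipients being DPPIV−. The second holds SHPCs of livers without transplantation. The third holds hepatocytes, which the cell type label places beside SHPC clusters without Thy1+ transplantation. In all 3 groups the rats had been injected with retrorsine 2 times, with 2 weeks in between and 30 mg/kg at each injection, and had a partial hepatectomy 4 weeks after the later injection. Retrorsine is a plant alkaloid that blocks division of resident hepatocytes, so that SHPC clusters take part in regrowth after surgery. No untreated liver was analysed here. The comparison of SHPCs from transplanted livers with hepatocytes differs in cell type and in transplantation at once, and within it their parts cannot be told apart. By the cell type label, SHPCs without transplantation differ from the former in transplantation and from the latter in cell type. No hepatocytes of transplanted livers were among the groups. The labels do not say which captured regions came from which animal, so p-values measure the spread between these arrays. They are too small wherever regions of the same group share an animal. Animals shared between groups did not enter the main fit.

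Values are log2 of the deposited intensities, and no level is set against that of another probe set. The median intensity of an array lay between 19.6 and 24.1. SHPC array 2 and hepatocyte array 2 stood apart, at 54.1 and 42.2 on a first principal component that held 54.4% of the variance, with the other 7 arrays between -22.8 and 2.30. Hepatocyte markers were present throughout: 8 of the 10 listed were measured and none lay at or below an array's 25th percentile on all arrays, and their summed intensity was 42628 to 43587 in SHPCs of transplanted livers, against 36992 to 42029 in SHPCs and 36467 to 39525 in hepatocytes. Kupffer cell markers, which label the resident macrophages of liver, summed to 3042 to 3597 in SHPCs of transplanted livers, against 1621 to 2671 in SHPCs and 2242 to 2954 in hepatocytes. All 12 of them lay higher in SHPCs of transplanted livers than in SHPCs, with a median difference of 0.56, and none passed the test. Against hepatocytes 10 of the 12 lay higher, with a median difference of 0.24, and Marco, a scavenger receptor, rose by 0.80 (limma adjusted p 0.0456). The sums for endothelium were 787 to 901 in SHPCs of transplanted livers, against 537 to 768 in SHPCs and 611 to 883 in hepatocytes, and those for stellate cells and fibroblasts were 883 to 1081 in SHPCs of transplanted livers, against 561 to 875 in SHPCs and 656 to 1010 in hepatocytes. The cholangiocyte sums were 147 to 171 in SHPCs of transplanted livers, 136 to 146 in SHPCs and 116 to 134 in hepatocytes, the T and NK cell sums were 311 to 426 in SHPCs of transplanted livers, 151 to 281 in SHPCs and 181 to 393 in hepatocytes, and the adipocyte sums were 154 to 169 in SHPCs of transplanted livers, 159 to 200 in SHPCs and 168 to 227 in hepatocytes. Most of the T and NK cell sum was Cd4, at a mean intensity of 280.3 in SHPCs of transplanted livers, 157 in SHPCs and 202 in hepatocytes. Over the 7 measured markers of that list, 5 of them tested, the median difference between SHPCs of transplanted livers and SHPCs was -0.01, with 3 higher. Lum of the stellate list and Cd3d of the T cell list lay at or below the 25th percentile on every array. The part of these other cells in the differences below was not tested. In captured tissue, fewer cells of a type and less RNA per cell cannot be told apart.

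PPAR alpha with its partner reads the direct repeat 1 element (DR1), a pair of AGGTCA motifs with a single base between them, so the promoters of the members were searched for it. RefSeq promoter windows of GRCr8, 250 bases before to 50 after the annotated start, were at hand for 35 of the 41 measured genes, on both strands. A DR1 with up to 2 mismatches over its 12 fixed bases was found in 9 of the 35 windows (25.7%), against 1263 of 33469 windows of all genes (3.77%). No member held a DR1 without mismatch, which 18 windows of all genes (0.0538%) did, and 10 members (28.6%) held a lone AGGTCA on either strand, against 16.2% of all windows. A lone AGGTCA can be part of a DR1, so the counts overlap. The 9 matches are shown along the repeat, with capitals for bases equal to the motif in its place, and the distance given is that of the match's most upstream base.
Creb3l3 (chr7:9273126-9273138, plus strand, 194 bases before the start): AGGggAgAGGTCA
Acadvl (chr10:55236710-55236722, minus strand, 17 bases before the start): AGGTCAgtGGTCA
Echs1 (chr1:204333649-204333661, plus strand, 155 bases before the start): AGaTCAgAGGTCt
Etfa (chr8:64788107-64788119, plus strand, 154 bases before the start): AGGgCAaAGGTaA
Slc25a20 (chr8:118243588-118243600, plus strand, 15 bases after the start): AGGTgAaAGGTCg
Crat (chr3:34087310-34087322, minus strand, 223 bases before the start): AGGaCAccGGTCA
Acot8 (chr3:173962198-173962210, minus strand, 22 bases before the start): gGGTCAgAGGTCA
Acot12 (chr2:24721854-24721866, minus strand, 105 bases before the start): AGGTgAgAGGTCA
Fabp1 (chr4:104749263-104749275, minus strand, 77 bases before the start): AGGcCAtAGGTCA
A match describes letters in a window and is no site. Of the 9 genes below that were called lower in SHPCs of transplanted livers than in hepatocytes, 5 had a window (Cpt1a, Eci1, Acot2, Pex11a and Crat) and only that of Crat held a match. To let the windows be seen, the 250 bases before the start are printed 5′ to 3′ along the gene for Fabp1 and Crat, which hold a match, in capitals, and for Cpt1a and Eci1, which were lower in SHPCs of transplanted livers and hold none in this window.
Fabp1 (chr4:104749090-104749339, plus strand): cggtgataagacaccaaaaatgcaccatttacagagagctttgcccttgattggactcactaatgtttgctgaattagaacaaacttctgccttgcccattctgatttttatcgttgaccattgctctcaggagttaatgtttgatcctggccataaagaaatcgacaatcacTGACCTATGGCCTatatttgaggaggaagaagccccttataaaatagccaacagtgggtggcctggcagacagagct
Crat (chr3:34087100-34087349, minus strand): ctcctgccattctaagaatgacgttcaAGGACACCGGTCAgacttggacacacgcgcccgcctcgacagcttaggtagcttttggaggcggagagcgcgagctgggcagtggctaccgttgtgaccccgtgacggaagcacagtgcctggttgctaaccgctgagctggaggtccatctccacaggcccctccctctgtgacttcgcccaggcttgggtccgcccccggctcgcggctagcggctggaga
Cpt1a (chr1:209995910-209996159, plus strand): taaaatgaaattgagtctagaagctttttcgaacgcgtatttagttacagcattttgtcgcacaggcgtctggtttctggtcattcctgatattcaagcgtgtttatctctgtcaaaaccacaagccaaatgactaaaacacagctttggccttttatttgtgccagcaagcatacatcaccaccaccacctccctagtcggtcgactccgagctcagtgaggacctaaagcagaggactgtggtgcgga
Eci1 (chr10:13961000-13961249, plus strand): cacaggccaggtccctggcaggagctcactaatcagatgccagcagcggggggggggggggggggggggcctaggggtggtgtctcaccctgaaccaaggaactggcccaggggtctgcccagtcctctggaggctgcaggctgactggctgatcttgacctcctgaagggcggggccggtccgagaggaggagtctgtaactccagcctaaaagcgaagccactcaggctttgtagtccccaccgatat
The Fabp1 match lies on the strand opposite to the gene, so its printed letters above are the reverse complement of the line given for the repeat.

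In SHPCs of transplanted livers, the arrays of Eci1, Cpt1a, Ech1, Acot2, Decr1 and Pex11a all lay below every SHPC array, with mean differences of -1.13 to -2.25 on the log2 scale, while Ppara and most genes of the main mitochondrial steps overlapped. None of the 41 passed limma's test at an adjusted p under 0.05, and the share called among all 15793 genes was 0.00633%, which is 1 gene. At an unadjusted p under 0.05, 12 members were lower, against 2.29% of all genes, and 0 were higher, against 5.07%. The 3 arrays of SHPCs from transplanted livers lay wholly below the 3 SHPC arrays for 14 members (5.23% of all genes) and wholly above for 1, Acsl1 (10.6% of all genes). The median difference of the 41 was -0.26 on the log2 scale, with 30 lower and 11 higher, beside a median of 0.02 over all tested genes. By more than 1 log2 unit, 9 members (22.0%) lay lower, against 0.196% of all tested genes. The median of the members moved with single arrays, to -0.57 without SHPC array 2 and to -0.08 without SHPC array 3.

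Against hepatocytes, SHPCs of transplanted livers had 10 of the 41 members called at an adjusted p under 0.05 in limma, where 1.18% of all genes were called. As in the main fit throughout, captured regions entered as independent samples, so the p-values are too small if regions of the same group share an animal. Lower were 9 (Cpt1a, Eci1, Decr1, Acot2, Ech1, Crat, Pex11a, Vnn1 and Cyp4a1), against 0.317% of all genes, and higher was 1, Acnat2, against 0.861%. The called genes came from each functional class but the regulators: 4 mitochondrial, 2 that work in several compartments, 2 peroxisomal and 2 other targets. The arrays of SHPCs from transplanted livers lay wholly below those of hepatocytes for 22 members (6.64% of all genes) and wholly above for 2, Echs1 and Acnat2 (12.6% of all genes). The median difference was -0.38, with 31 members lower and 10 higher, beside -0.00 for all tested genes, and it was -0.62 without hepatocyte array 2. Without any one of the 3 arrays of transplanted livers, or without hepatocyte array 1 or 3, the calls numbered 3, namely Acnat2, Eci1 and Pex11a, and the adjusted p of the other 7 was then above 0.05. Calls among all genes fell as well in those fits, to between 31 and 62, from 186 in the main fit. Those 3 genes were called in each of the 21 alternatives, with an adjusted p of at most 0.0479 for Acnat2 and Eci1 and of at most 0.0276 for Pex11a.

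For SHPCs against hepatocytes, both from livers without transplantation, none of the 41 members was called by limma at an adjusted p under 0.05, with 0.0633% of all genes called, 10 in number. At an unadjusted p under 0.05, 2 members were lower in SHPCs (Pex11a and Acot12), against 1.81% of all genes, and 1 was higher (Acnat2), against 2.31%. The SHPC arrays lay wholly below the hepatocyte arrays for the same 2 (2.49% of all genes) and wholly above for Acnat2 (2.72% of all genes). The median difference was -0.08, with 25 members lower and 16 higher, beside -0.01 for all genes. It turned to 0.09 without SHPC array 2 and to 0.02 without hepatocyte array 3, and it was -0.31 without SHPC array 3 and -0.32 without hepatocyte array 2. Equal replicate numbers deviated together in these groups. Both arrays that stood apart carry number 2, though, and SHPC array 3 correlated more with hepatocyte array 1 (0.480) than with array 3 (0.341). Whether the numbers mark pairs is therefore not known. In the fit of the 6 arrays with the number as a block Acnat2 was called at an adjusted p of 0.0322 (limma, n = 3 each), with 77 of all genes called. That fit was added after the data were seen. With the number as a block over all 9 arrays, limma called no member, 35 of all genes were called, and Acnat2 had an adjusted p of 0.0707. The comparison of SHPCs from transplanted livers with SHPCs shares the SHPC arrays with this one, and that with hepatocytes shares the hepatocyte arrays, so that the differences of a gene in the 3 comparisons are not independent.

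**Figure D1:**
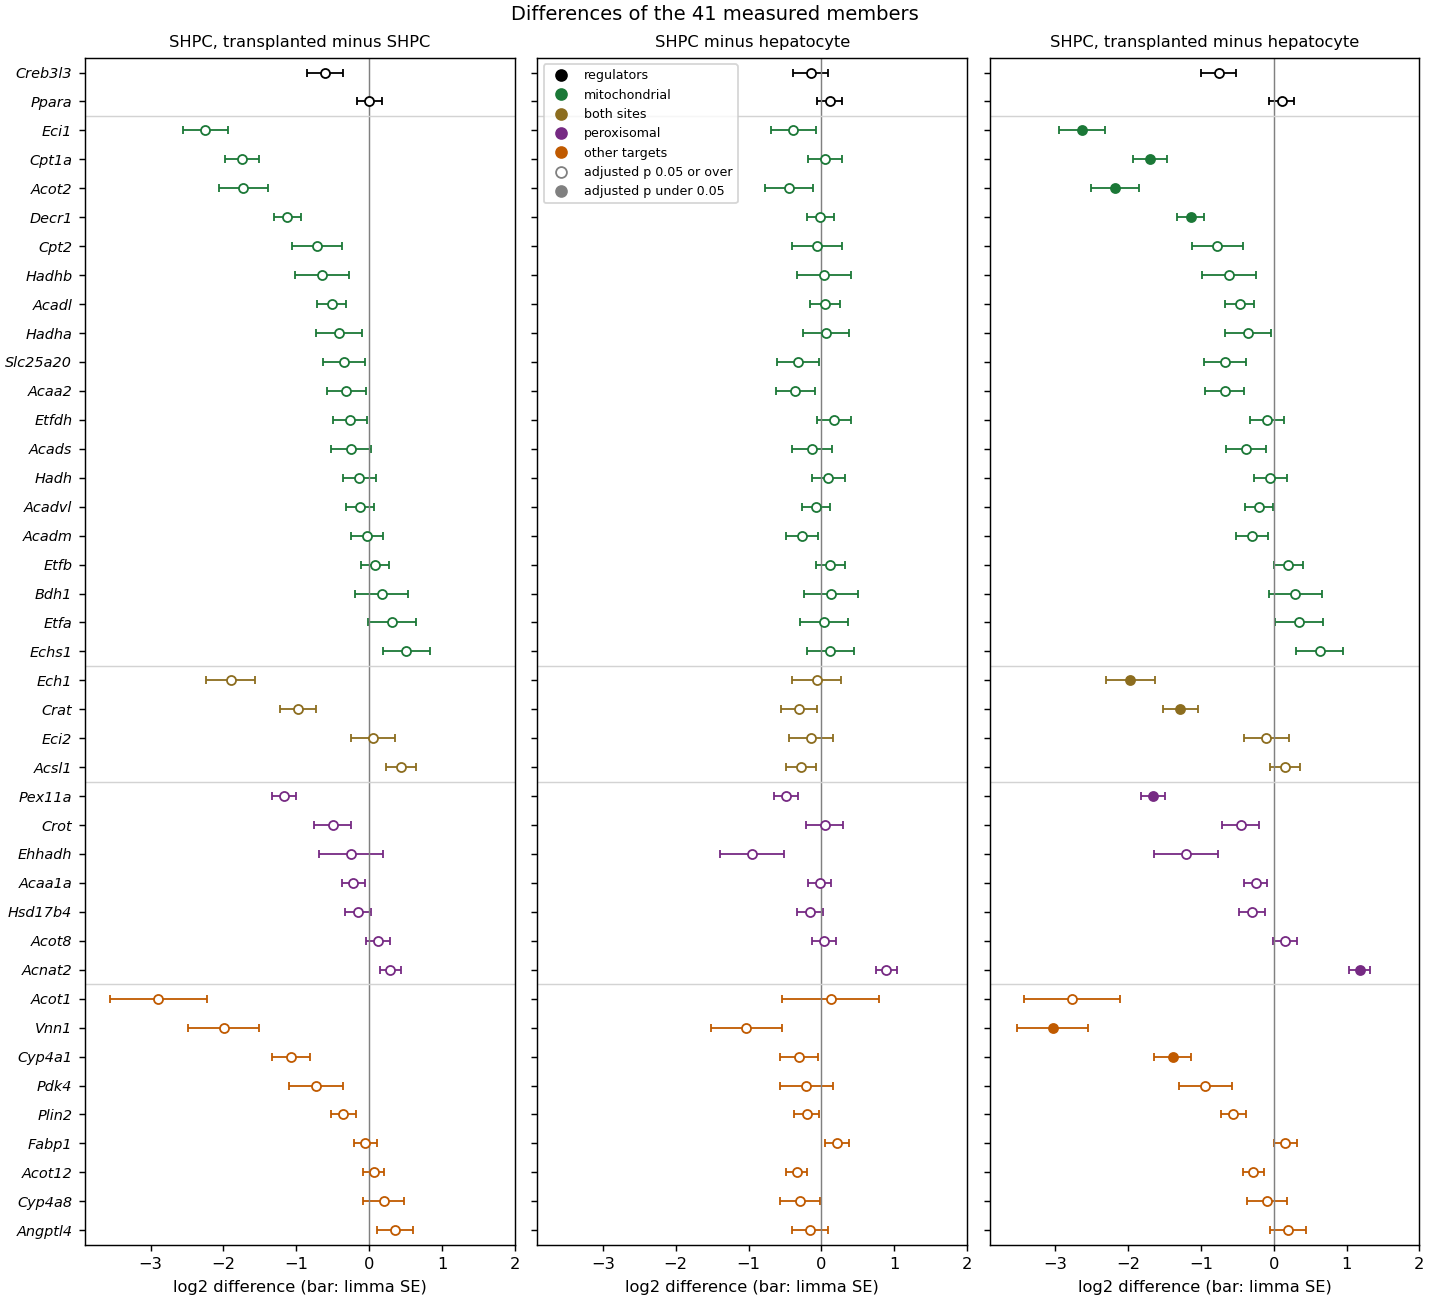
Log2 differences of the 41 measured genes (points) with limma's SE (bars) in the 3 comparisons, coloured by functional class, "both sites" being genes whose products work in mitochondria and in other compartments. Filled points have an adjusted p under 0.05: none in the left and middle panels, and 10 in the right panel, 9 of them to the left of 0 and Acnat2 to the right.

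The gene of the receptor itself, Ppara, lay at 7.37, 7.53 and 7.35 in SHPCs of transplanted livers, against 7.75, 7.15 and 7.36 in SHPCs and 7.50, 7.22 and 7.21 in hepatocytes (log2 intensity). All 3 groups overlapped. The difference between SHPCs of transplanted livers and SHPCs was -0.00 ± 0.17 (SE, n = 3 each), with a 95% interval of -0.39 to 0.38. It was 0.11 ± 0.17 for SHPCs minus hepatocytes, with an interval of -0.27 to 0.49, and 0.11 ± 0.17 for SHPCs of transplanted livers minus hepatocytes, with an interval of -0.27 to 0.49. The sign changed with the scaling in both comparisons with SHPCs of transplanted livers. In SHPCs minus hepatocytes it changed only with a single array left out.

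Creb3l3 encodes CREB-H, a liver transcription factor held in the endoplasmic reticulum that acts with PPAR alpha on fasting genes. It lay at 8.68, 9.05 and 8.91 in SHPCs of transplanted livers, against 9.50, 9.11 and 9.84 in SHPCs and 9.89, 9.14 and 9.88 in hepatocytes. All 3 arrays of transplanted livers were below the lowest array of the other groups. The difference from SHPCs was -0.61 ± 0.24 and that from hepatocytes -0.76 ± 0.24, with limma adjusted p of 0.653 and 0.265.

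Within the carnitine shuttle the differences ranged widely. Cpt1a, the rate-limiting enzyme that makes long-chain acylcarnitines at the outer mitochondrial membrane, lay at 7.77, 7.99 and 8.15 in SHPCs of transplanted livers, against 9.52, 9.41 and 10.22 in SHPCs and 9.85, 9.32 and 9.81 in hepatocytes. No array of transplanted livers came within 1 log2 unit of the other 6. Its level in SHPCs of transplanted livers was 3.23-fold below that in hepatocytes, a difference of -1.69 ± 0.23 with a limma adjusted p of 0.0112, and 3.36-fold below that in SHPCs, -1.75 ± 0.23, with an adjusted p of 0.0752. SHPCs minus hepatocytes was 0.05 ± 0.23, with a 95% interval of -0.47 to 0.58.

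The partners of Cpt1a in the shuttle differed less and overlapped between SHPCs of transplanted livers and SHPCs. Slc25a20, which exchanges acylcarnitine for carnitine across the inner membrane, averaged 7.70 ± 0.15 in SHPCs of transplanted livers, 8.04 ± 0.57 in SHPCs and 8.36 ± 0.41 in hepatocytes (SD, n = 3 each). Cpt2, which returns the acyl group to coenzyme A in the matrix, averaged 7.43 ± 0.15 in SHPCs of transplanted livers, 8.15 ± 0.70 in SHPCs and 8.21 ± 0.53 in hepatocytes (SD, n = 3 each). Against hepatocytes both lay lower on all 3 arrays of transplanted livers, with differences of -0.66 ± 0.29 and -0.77 ± 0.35, and neither was called, at adjusted p of 0.460 and 0.480 in limma. Crat, which moves short acyl groups such as acetyl between coenzyme A and carnitine in mitochondria and peroxisomes, lay at 6.24, 6.89 and 6.51 in SHPCs of transplanted livers, against 7.38, 7.19 and 7.99 in SHPCs and 7.60, 7.77 and 8.12 in hepatocytes. Its arrays of transplanted livers were lower than all others. The difference of Crat from hepatocytes was -1.28 ± 0.24 (adjusted p 0.0399), and the difference from SHPCs was -0.98 ± 0.24 (adjusted p 0.326), both by limma.

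Several members prepare the bonds of unsaturated fatty acids for the cycle, Eci1, Ech1 and Decr1 among them. Eci1, the mitochondrial enoyl-CoA isomerase that shifts such a bond into place, lay at 7.80, 7.72 and 7.38 in SHPCs of transplanted livers, against 9.70, 9.33 and 10.61 in SHPCs and 10.29, 9.86 and 10.65 in hepatocytes. Its highest array of transplanted livers was more than 1 log2 unit below the lowest of the other 6. Eci1 fell 6.2-fold against hepatocytes, a difference of -2.63 ± 0.31 with a limma adjusted p of 0.00585, and lay 4.75-fold below SHPCs, at -2.25 ± 0.31 with an adjusted p of 0.0804.

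Ech1, a dienoyl-CoA isomerase of mitochondria and peroxisomes, lay at 7.97, 8.09 and 7.87 in SHPCs of transplanted livers, against 9.88, 9.26 and 10.49 in SHPCs and 10.13, 9.27 and 10.43 in hepatocytes. Its arrays of transplanted livers were below all 6 others. The differences were -1.90 ± 0.34 from SHPCs (adjusted p 0.162) and -1.97 ± 0.34 from hepatocytes (adjusted p 0.0264) in limma.

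Decr1, the mitochondrial dienoyl-CoA reductase, lay at 7.96, 8.0 and 7.79 in SHPCs of transplanted livers, against 8.92, 8.83 and 9.38 in SHPCs and 9.01, 8.83 and 9.34 in hepatocytes. The SHPC and hepatocyte arrays shared a range, with the arrays of transplanted livers below it. Its differences were -1.13 ± 0.18 from SHPCs (adjusted p 0.142) and -1.14 ± 0.18 from hepatocytes (adjusted p 0.0216) in limma. Eci2, a second enoyl-CoA isomerase found in peroxisomes and mitochondria, averaged 9.84 ± 0.04 in SHPCs of transplanted livers, 9.79 ± 0.62 in SHPCs and 9.94 ± 0.46 in hepatocytes (SD, n = 3 each), and its difference from SHPCs had a 95% interval of -0.63 to 0.72.

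For the main steps of the mitochondrial cycle, most arrays overlapped. Of the acyl-CoA dehydrogenases, which take the first step and differ in the chain length they accept, Acadl (long chains) lay at 10.56, 10.51 and 10.48 in SHPCs of transplanted livers, against 11.10, 10.62 and 11.39 in SHPCs and 11.15, 10.69 and 11.12 in hepatocytes. Acadl was lower on all 3 arrays of transplanted livers, with a difference of -0.52 ± 0.20 from SHPCs, and was not called (limma adjusted p 0.641). Acadm (medium chains) differed by -0.03 ± 0.22, Acads (short chains) by -0.25 ± 0.27 and Acadvl (very long chains) by -0.12 ± 0.19 between SHPCs of transplanted livers and SHPCs. The arrays of the last 3 overlapped. The intervals of those differences were -0.52 to 0.46 for Acadm, -0.86 to 0.35 for Acads and -0.55 to 0.31 for Acadvl, at 95%.

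Hadha and Hadhb, the subunits of the trifunctional protein that does the later steps for long chains, differed by -0.41 ± 0.32 and -0.65 ± 0.37 between SHPCs of transplanted livers and SHPCs, with overlapping arrays. Hadh, the dehydrogenase for shorter hydroxyacyl-CoA, differed by -0.14 ± 0.23. Acaa2, a mitochondrial thiolase, differed by -0.31 ± 0.27. Echs1, the short-chain enoyl-CoA hydratase, went the other way, averaging 9.58 ± 0.10 in SHPCs of transplanted livers, 9.07 ± 0.67 in SHPCs and 8.95 ± 0.46 in hepatocytes (SD, n = 3 each). It lay above all hepatocyte arrays, by 0.63 ± 0.32, and was not called (limma adjusted p 0.552).

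The electron transfer flavoprotein, which carries electrons from the dehydrogenases to the respiratory chain, showed overlapping arrays as well. Its subunit genes Etfa and Etfb differed by 0.32 ± 0.33 and 0.08 ± 0.20, and Etfdh, its oxidoreductase, by -0.26 ± 0.23 between SHPCs of transplanted livers and SHPCs. Bdh1, which interconverts the ketone bodies acetoacetate and beta-hydroxybutyrate, differed by 0.17 ± 0.37. Its arrays overlapped too. Over the 19 mitochondrial genes the median difference was -0.31 with 15 lower, and 5 had arrays of transplanted livers wholly below those of SHPCs (5.23% of all genes). That median was -0.08 without SHPC array 3 and -0.58 without SHPC array 2.

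Thioesterases release fatty acids from coenzyme A. Acot2 works in the mitochondrial matrix and lay at 5.93, 6.03 and 5.85 in SHPCs of transplanted livers, against 7.57, 7.04 and 8.37 in SHPCs and 8.30, 7.52 and 8.51 in hepatocytes. Acot2 fell 4.51-fold against hepatocytes, a difference of -2.17 ± 0.33 (limma adjusted p 0.0200), with -1.73 ± 0.33 against SHPCs (adjusted p 0.176). No array of transplanted livers reached the range of the other groups. Its cytosolic relative Acot1, a close paralog, lay at 3.04, 2.14 and 2.89 in SHPCs of transplanted livers, against 4.94, 4.90 and 6.93 in SHPCs and 4.71, 4.77 and 6.91 in hepatocytes. The arrays of transplanted livers were near or below the 25th percentile of their array, which was 2.89, 2.85 and 2.88, so the size of the difference of -2.89 ± 0.66 from SHPCs is uncertain, and the limma adjusted p was 0.278. Acot1 and Acot2 are near-identical in sequence, and signal shared between their probe sets could not be separated.

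**Figure D2:**
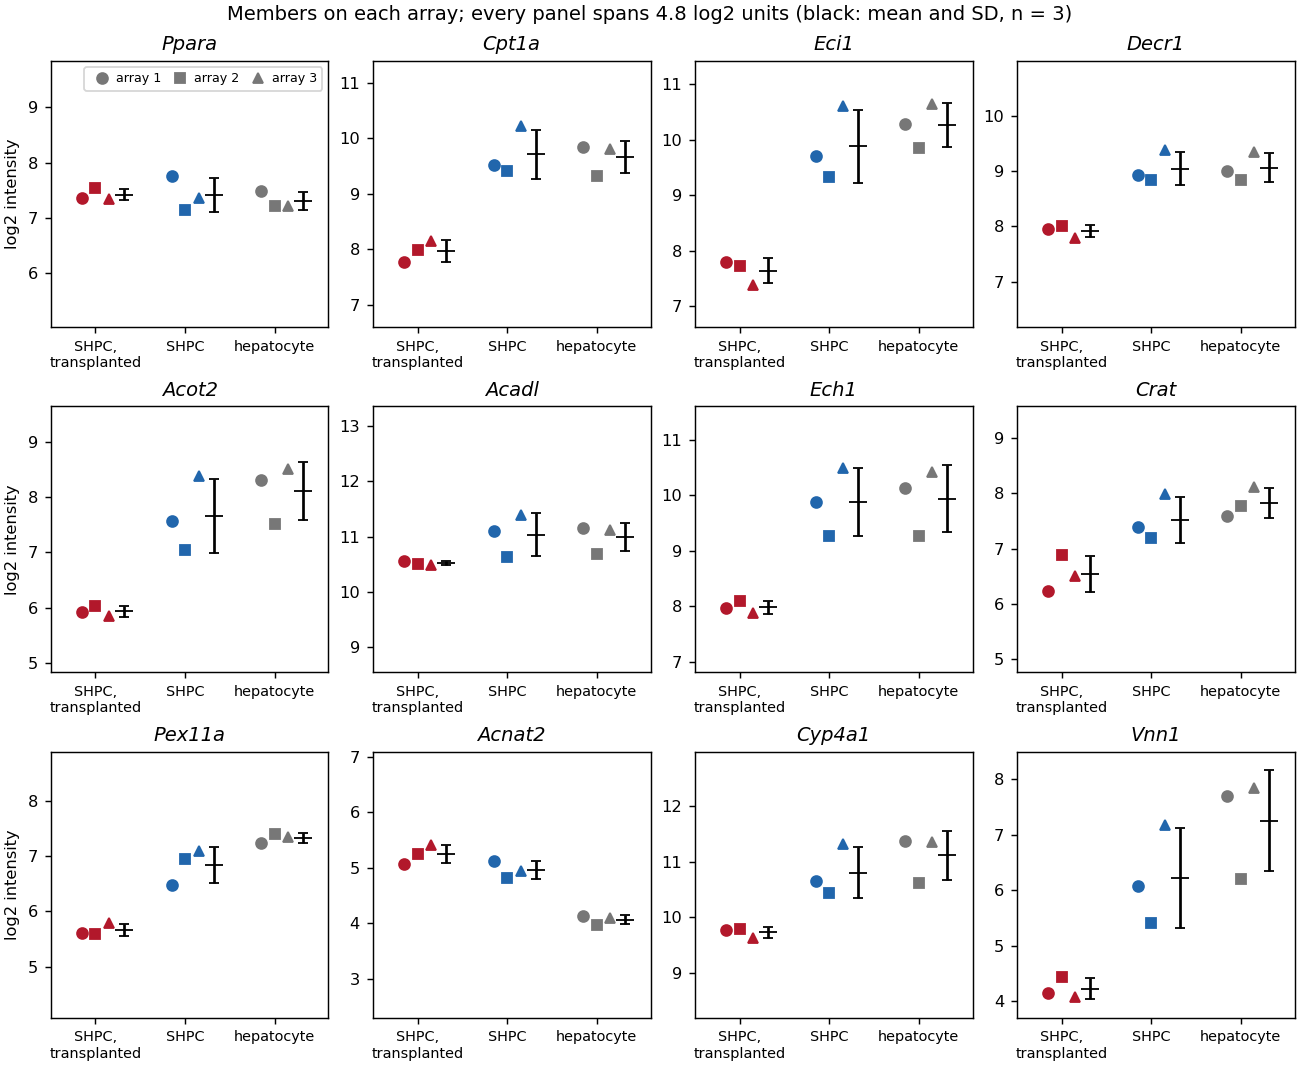
Log2 intensity of 12 of the genes the text describes array by array, with 3 points per group for SHPCs of transplanted livers, SHPCs and hepatocytes, in that order, with a symbol for each array number and the mean and SD in black, each panel having its own axis of equal span. Cpt1a, Eci1, Decr1, Ech1, Acot2 and Pex11a show 3 points of transplanted livers below all 6 others, Ppara shows overlapping groups, and Acnat2 shows its lowest points in hepatocytes.

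Acsl1, which activates long-chain fatty acids and sits on mitochondria and the endoplasmic reticulum, was the member whose arrays of transplanted livers lay wholly above those of SHPCs. It lay at 11.45, 11.41 and 11.48 in SHPCs of transplanted livers, against 11.25, 10.58 and 11.20 in SHPCs and 11.51, 10.98 and 11.38 in hepatocytes. The difference from SHPCs was 0.44 ± 0.20 (limma adjusted p 0.695), and without the low SHPC array 2 the SHPC arrays at 11.25 and 11.20 were still below. Against hepatocytes the arrays overlapped, at 0.16 ± 0.20.

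Of the peroxisomal genes, Pex11a was called against hepatocytes and lay lower. It encodes a membrane protein that takes part in peroxisome elongation and division and is a known target of PPAR alpha. Pex11a lay at 5.61, 5.59 and 5.80 in SHPCs of transplanted livers, against 6.47, 6.95 and 7.08 in SHPCs and 7.23, 7.40 and 7.34 in hepatocytes, with no overlap between any pair of groups. It fell 3.15-fold in SHPCs of transplanted livers against hepatocytes, a difference of -1.66 ± 0.17 with a limma adjusted p of 0.00346. The other differences were -1.17 ± 0.17 for SHPCs of transplanted livers minus SHPCs (adjusted p 0.0879) and -0.49 ± 0.17 for SHPCs minus hepatocytes (adjusted p 0.863).

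The enzymes of the peroxisomal cycle gave smaller differences from SHPCs. Ehhadh, the L-bifunctional enzyme for the middle steps, lay at 10.13, 9.94 and 9.86 in SHPCs of transplanted livers, against 10.52, 9.11 and 11.05 in SHPCs and 11.41, 10.57 and 11.57 in hepatocytes. Arrays of transplanted livers overlapped those of SHPCs and lay below those of hepatocytes. The difference from hepatocytes was -1.20 ± 0.44 for SHPCs of transplanted livers and -0.95 ± 0.44 for SHPCs, and neither was called (limma adjusted p 0.347 and 1). SHPC array 2, which stood apart, held the lowest value, and without it the difference of SHPCs from hepatocytes was -0.40.

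Hsd17b4, the D-bifunctional enzyme, differed by -0.15 ± 0.18 between SHPCs of transplanted livers and SHPCs, and Acaa1a, the peroxisomal thiolase, by -0.22 ± 0.16. Crot, which forms medium-chain acylcarnitines for export from peroxisomes, differed by -0.50 ± 0.25, and Acot8, a peroxisomal thioesterase, by 0.12 ± 0.16. All 4 had overlapping arrays in that comparison.

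Acnat2, which belongs to the acyl-CoA amino acid N-acyltransferases of peroxisomes, lay at 5.08, 5.26 and 5.41 in SHPCs of transplanted livers, against 5.13, 4.81 and 4.94 in SHPCs and 4.14, 3.97 and 4.09 in hepatocytes. Both SHPC groups were above all hepatocyte arrays and overlapped each other. It rose 2.27-fold in SHPCs of transplanted livers against hepatocytes, by 1.18 ± 0.14 (limma adjusted p 0.00585). Its mean intensity in hepatocytes was 16.8, below the median intensity of every array, so the size of the rise is uncertain. Over the alternatives that rise ran from 0.89 to 1.27. SHPCs minus hepatocytes was 0.89 ± 0.14 (adjusted p 0.0977, or 0.0322 with the replicate block over the 6 arrays, n = 3 each, limma), and SHPCs of transplanted livers minus SHPCs was 0.29 ± 0.14 (adjusted p 0.698). The median of the 7 peroxisomal genes was -0.22 for SHPCs of transplanted livers minus SHPCs, with 5 lower. That median was 0.008 without SHPC array 3 and -0.31 without SHPC array 2.

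Among the other targets, Vnn1 had the widest difference from hepatocytes of all members. It encodes vanin-1, a pantetheinase on the cell surface that frees the vitamin part of coenzyme A, and it is a PPAR alpha target in liver. Vnn1 lay at 4.15, 4.43 and 4.08 in SHPCs of transplanted livers, against 6.07, 5.40 and 7.18 in SHPCs and 7.71, 6.20 and 7.84 in hepatocytes. The arrays of transplanted livers were below all others, while SHPC and hepatocyte arrays overlapped. It fell 8.17-fold against hepatocytes, a difference of -3.03 ± 0.49 (limma adjusted p 0.0214). Its mean intensity in SHPCs of transplanted livers was 18.8, below the median intensity of every array, so the size of the fall is uncertain. Over the alternatives the difference ran from -3.55 to -2.60. The other differences were -2.0 ± 0.49 from SHPCs (adjusted p 0.310) and -1.03 ± 0.49 for SHPCs minus hepatocytes (adjusted p 1).

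Cyp4a1, a fatty acid omega-hydroxylase of the endoplasmic reticulum and a classical marker of PPAR alpha activity in rat liver, lay at 9.78, 9.79 and 9.62 in SHPCs of transplanted livers, against 10.66, 10.44 and 11.32 in SHPCs and 11.38, 10.61 and 11.36 in hepatocytes. The arrays of transplanted livers were lower than all 6 others. Its difference from hepatocytes was -1.39 ± 0.26 (limma adjusted p 0.0368), and the difference from SHPCs was -1.08 ± 0.26 (adjusted p 0.301). Cyp4a8, from the same family, differed by 0.20 ± 0.28 between SHPCs of transplanted livers and SHPCs, close to the dim end of the arrays. The Cyp4a genes resemble each other in sequence, and signal shared between their probe sets could not be separated.

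Pdk4, a kinase that turns off pyruvate dehydrogenase when fat is burned, averaged 9.35 ± 0.20 in SHPCs of transplanted livers, 10.08 ± 0.62 in SHPCs and 10.29 ± 0.69 in hepatocytes (SD, n = 3 each). Plin2, a coat protein of lipid droplets, averaged 9.48 ± 0.20 in SHPCs of transplanted livers, 9.83 ± 0.13 in SHPCs and 10.03 ± 0.27 in hepatocytes (SD, n = 3 each). Both lay lower on all 3 arrays of transplanted livers than in SHPCs, with differences of -0.73 ± 0.37 and -0.35 ± 0.17, and neither was called (limma adjusted p 0.706 and 0.698).

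Fabp1, the abundant fatty acid binding protein of liver, averaged 11.81 ± 0.05 in SHPCs of transplanted livers, 11.86 ± 0.27 in SHPCs and 11.65 ± 0.16 in hepatocytes (SD, n = 3 each). The difference from SHPCs had a 95% interval of -0.41 to 0.30. Angptl4, a secreted inhibitor of lipoprotein lipase, differed by 0.35 ± 0.25 between SHPCs of transplanted livers and SHPCs. Acot12, a cytosolic acetyl-CoA hydrolase, lay at 9.50, 9.44 and 9.50 in SHPCs of transplanted livers, against 9.53, 9.21 and 9.52 in SHPCs and 9.94, 9.60 and 9.73 in hepatocytes. SHPC arrays were below all hepatocyte arrays for Acot12, with a difference of -0.34 ± 0.14 (limma adjusted p 1), as were those of transplanted livers, with -0.28 ± 0.14. The median of the 9 other targets was -0.35 for SHPCs of transplanted livers minus SHPCs, with 6 lower.

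The level of the members as a group also varied between arrays of a group. Set against the hepatocyte mean of each gene, the median of the 41 was -0.33, -0.33 and -0.51 on the arrays of transplanted livers, -0.11, -0.55 and 0.31 on the SHPC arrays, and 0.19, -0.42 and 0.24 on the hepatocyte arrays. The medians of SHPC array 2 and hepatocyte array 2, the arrays that stood apart, were thus as low as those of transplanted livers. These arrays also had the narrowest spread of log2 values, with an SD of 1.94 and 1.98, against 2.09 to 2.13 on the others. Their summed hepatocyte markers, 36992 and 36467, were the lowest of their groups. Whether the low medians are particular to the members was not tested. The 19 mitochondrial genes had -0.33, -0.35 and -0.51 on the arrays of transplanted livers, 0.11, -0.65 and 0.48 on the SHPC arrays, and 0.20, -0.45 and 0.25 on the hepatocyte arrays. With both of those arrays left out, 5 members were called lower in SHPCs of transplanted livers than in SHPCs (Acot2, Cpt1a, Ech1, Eci1 and Vnn1), with 23 of all genes called, and 19 members were called against hepatocytes, with 576 of all genes called. For SHPCs minus hepatocytes 1 member, Acnat2, was called without them, at an adjusted p of 0.0490 by limma, with 61 of all genes called.

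**Figure D3:**
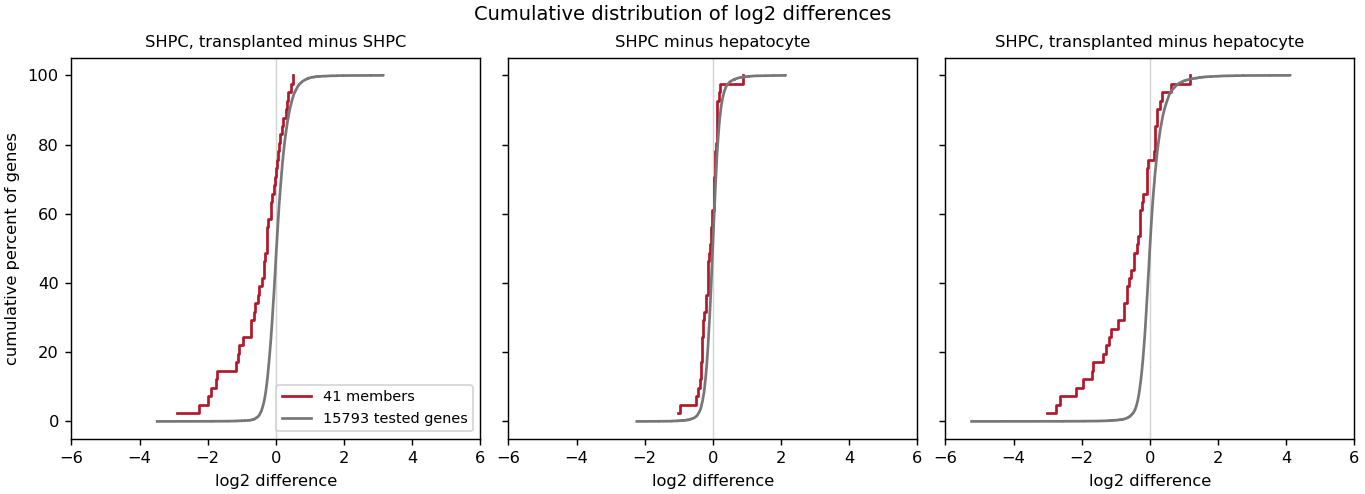
Cumulative share of genes (vertical axis, percent) against the log2 difference (horizontal axis) for the 41 genes and for all 15793 tested genes in the 3 comparisons. The curve of the 41 genes lies left of that of all genes in the comparisons with SHPCs of transplanted livers, with medians of -0.26 and -0.38, and near it for SHPCs minus hepatocytes, with a median of -0.08.

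A further 40 genes of fatty acid uptake, activation, peroxisomal oxidation and PPAR control were listed as company for the members, and the 34 that were measured are described here. In SHPCs of transplanted livers minus SHPCs limma called 0 of them at an adjusted p under 0.05, 8 were lower (2.29% of all genes) and 3 higher (5.07% of all genes) at an unadjusted p under 0.05, and their median difference was 0.08. The smallest p belonged to Slc22a5, the plasma membrane carrier that brings carnitine into the cell, with -1.45 ± 0.19 (adjusted p 0.0609). Lower too were Hacl1 and Phyh, enzymes of the alpha-oxidation of branched fatty acids, at -1.18 ± 0.34 and -0.54 ± 0.16, the peroxisomal thiolase Acaa1b at -0.76 ± 0.19 and the secreted fasting hormone Fgf21 at -0.95 ± 0.27. Higher were Acacb, which makes the malonyl-CoA that inhibits CPT1 at mitochondria, at 1.54 ± 0.25 (limma adjusted p 0.142), and the acyl-CoA synthetases Acsl3 and Acsl5 at 1.96 ± 0.38 and 0.88 ± 0.24. Against hepatocytes, 4 of the 34 were called by limma, beside 1.18% of all genes: Slc22a5 (-1.89, adjusted p 0.00295), Amacr, a racemase for branched fatty acids (-1.51, adjusted p 0.0205) and Acaa1b (-1.20, adjusted p 0.0206) fell in SHPCs of transplanted livers, and Acacb rose (1.65, adjusted p 0.0205).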

How the data were processed

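Arrays of 3 groups (n = 3 each) were compared. Per the submitters' processing notes the authors made the values with RMA; the sources used here give neither version nor settings. The deposited table holds a linear intensity for 36685 probe sets per array, and its log2 was taken here. Frozen sections of 7 µm, stained with hematoxylin, were captured by laser; RNA was purified on RNeasy columns and labelled with an Ambion whole-transcript kit, per the labels' protocols. Groups follow the cell type label; for hepatocytes the description label names transplanted SHPCs instead, while the titles read Control. No animal is tied to a region.

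Of the probe sets, 18511 carry 1 symbol in the platform annotation and 575 several, which were not named; 7 of the latter carry a listed gene. The probe set with the highest mean stood for a gene, and no member had several. Genes above an array's 25th percentile on at least 3 of the 9 arrays were tested, which left out 2373 as dim. limma 3.58.1 in R 4.3.3 fitted 3 group means to the 9 arrays, leaving 6 residual degrees of freedom. Moderation was by eBayes, and p-values of 15793 genes were adjusted after Benjamini and Hochberg, with calls at 0.05. The procedure was tested on simulated data with independent noise, equal for all genes and smaller than the pooled spread within groups. That simulation held no arrays that stand apart, so it does not show how often calls are false in these data. The number of arrays limits the precision. Promoter windows came from RefSeq, GRCr8.

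Members and lists were chosen with earlier results of these data known. Values on every array were to be printed for Ppara and Cpt1a, the 12 members with the smallest p in SHPCs of transplanted livers minus SHPCs and the 6 with the smallest in each other comparison, and up to 8 other pathway genes were to be named on the same ground; Amacr was named after its values were seen. Same-numbered SHPC and hepatocyte arrays deviated together (correlations 0.526, 0.705 and 0.341 over genes). Their numbers were taken as pairs in the replicate block alternatives alone, and the main fit was unpaired. Yet SHPC array 3 correlated more with hepatocyte array 1 (0.480) than with array 3. Alternatives covered normalization, filters, probe set choice, an added constant, samples, array weights, the replicate block and each array left out. Background correction could not be varied on the summarised values. Arrays that stood apart were known from earlier work.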

Additional observations from a re-analysis of the deposited data

How the results depend on the processing

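Members called, of 41, in SHPCs of transplanted livers minus SHPCs numbered 0, but 5 after quantile normalization, 8 after cyclic loess, 15 with array quality weights, 7 with the replicate block and 5 without both arrays that stood apart, and 0 to 2 with 1 array left out (2, Cpt1a and Pex11a, without SHPC replicate 1). In SHPCs minus hepatocytes the count of 0 became 1, Acnat2, with array weights, without both arrays that stood apart, and with the replicate block over the SHPC and hepatocyte arrays alone, an alternative added after the data were seen (77 of all genes called, against 10), and was 0 to 1 with 1 array left out (1 without SHPC replicate 2). In SHPCs of transplanted livers minus hepatocytes the count of 10 became 3 after median centring, 17 after cyclic loess, 4 with all probe sets, 26 with array weights and 19 without both arrays, and was 3 to 11 with 1 array left out. Of all genes, 0 to 259 were called in SHPCs of transplanted livers minus SHPCs (1 as reported), 0 to 375 in SHPCs minus hepatocytes (10) and 31 to 2685 in SHPCs of transplanted livers minus hepatocytes (186). In the first of these, all genes called numbered 17 after quantile normalization and 40 after cyclic loess. They numbered 259 with array weights, 64 with the replicate block, 23 without both arrays and 24 without SHPC replicate 1. In SHPCs minus hepatocytes they numbered 375 with array weights and 53 without SHPC replicate 2. In the last they numbered 47 after median centring, 439 after cyclic loess, 2685 with array weights and 576 without both arrays. They numbered 367 there with the replicate block, and 31 to 473 with 1 array left out. With all probe sets, 63 probe sets were called there. The cause of these moves was not tested. The same replicate numbers did not pair the arrays of transplanted livers with the others (correlations with SHPC arrays 0.00234, -0.0936 and -0.0390, with hepatocyte arrays -0.0690, -0.0797 and -0.0904), and the block changed the count of members called in SHPCs of transplanted livers minus hepatocytes to 11. The members' medians moved by less than the pooled spread of that median between replicate arrays (SD 0.332) in every alternative. That spread is wider than the medians themselves in SHPCs of transplanted livers minus SHPCs (-0.26) and in SHPCs minus hepatocytes (-0.08). Moving by less than it therefore does not show that these medians are stable. With 1 array left out the members' medians ran from -0.57 to -0.08, from -0.32 to 0.09 and from -0.62 to -0.30 in the 3 comparisons. Median centring moved the median of all genes by 0.103 in SHPCs of transplanted livers minus SHPCs, to 0.12, with the members' median then at -0.16. Of all 41 members, 13, 25 and 10 changed sign in at least 1 alternative in the 3 comparisons. Among the members the rule named for a comparison only Ppara and Cpt1a did, where neither was called: Ppara to 0.10 after median centring in SHPCs of transplanted livers minus SHPCs (-0.14 to 0.16 with 1 array left out), to -0.055 to 0.24 with 1 array left out in SHPCs minus hepatocytes, and to -0.021 and -0.032 after quantile normalization and cyclic loess in SHPCs of transplanted livers minus hepatocytes, and Cpt1a to -0.20 to 0.21 with 1 array left out in SHPCs minus hepatocytes (-0.20 without SHPC replicate 3 and -0.11 without hepatocyte replicate 2). With 3 arrays per group, differences smaller than their intervals could not be resolved.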
